A study of Mus musculus with 2 samples.

Results

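Leukocytes of the mouse cochlea on day 7 after noise exposure were compared directly with those on day 3. The series holds single-cell RNA profiles of living CD45+ cells sorted from mouse cochleae on days 3, 7 and 14 after noise and from a control called sham in 1 label and untreated in another. Cochleae of 6 mice were pooled for each condition and each pool was digested with Accutase and stained on its own, with a hashtag antibody against MHC class I and CD45 (Hashtag2 for day 3, Hashtag3 for day 7). Strain, age, sex and the level and duration of the noise are not given in the sources used here. There was 1 pool on each day and no replicate, so every interval below covers counting error alone. No test between the days was possible, and day, animals and digestion cannot be told apart. Intervals of gene and list ratios treat counted molecules as independent and leave out the spread between cells, so they are too narrow where few cells hold a gene.

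Cells were barcodes with at least 200 genes, at most 10% mitochondrial UMIs (unique molecular identifiers, the counted molecules) and a top hashtag with at least 10 UMIs and at least 80% of the hashtag UMIs. This gave 551 cells on day 3 and 216 on day 7, together 767 of the 1285 cells with 1 hashtag. Neutrophils were cells with at least 300 UMIs of S100a8 and S100a9 per 10000 gene UMIs, 256 on day 3 and 77 on day 7. B lineage cells were other cells with at least 3 UMIs of Cd79a, a part of the B cell receptor, 118 and 63 in number. The median cell had 8378 UMIs on day 3 and 7403.5 on day 7, with 2.41% and 3.36% mitochondrial UMIs. All 10 neutrophil markers were detected in the neutrophils of both days and all 11 B lineage markers in the B lineage cells. In day 3 neutrophils 1 marker of the B lineage list, Ms4a1, was at 0, and on day 7 5 of the 11 were.

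Neutrophils are made in stages. Precursors fill granules with antimicrobial proteins such as cathelicidin (Camp), neutrophilic granule protein (Ngp) and lactoferrin (Ltf), then stop dividing, lose those transcripts and gain receptors such as Cxcr2, which answers to the chemokine Cxcl2. B cell precursors alternate between division and rearrangement of their immunoglobulin genes: the surrogate light chain proteins Vpreb1 and Igll1 stand in for the light chain, Rag1 and Dntt act in rearrangement, and later cells carry immunoglobulin light chains, Ms4a1 (CD20) and MHC class II. Immediate early genes such as Fos, Junb and Egr1 encode transcription factors that cells of every kind switch on within minutes of a stimulus, the handling of tissue included.

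Neutrophils made up a smaller share of the cells on day 7 and B lineage cells a larger one. Neutrophils were 46.5% of the cells on day 3 (256 of 551, Clopper-Pearson 95% interval 42.2 to 50.7%) and 35.6% on day 7 (77 of 216, 29.3 to 42.4%), a ratio of 0.767 (exact Poisson 95% interval 0.587 to 0.994). B lineage cells were 21.4% on day 3 (18.1 to 25.1%) and 29.2% on day 7 (23.2 to 35.7%), a ratio of 1.36 whose interval, 0.987 to 1.86, held 1. Among cells that were no neutrophils the B lineage share was 40% and 45.3%, a ratio of 1.13 (0.821 to 1.55). The shares of a pool sum to 100, so these ratios are not independent of each other. T cells (5.44% and 7.87%), NK cells (6.53% and 7.41%) and macrophages (1.63% and 3.70%, 9 and 8 cells) had intervals of the ratio that held 1. Monocytes were 27 cells (4.90%) on day 3 and 4 cells (1.85%) on day 7, a ratio of 0.378 whose interval, 0.0961 to 1.08, held 1. Among cells that were no neutrophils the monocyte ratio was 0.314 (0.0799 to 0.902).

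**Figure D1:**
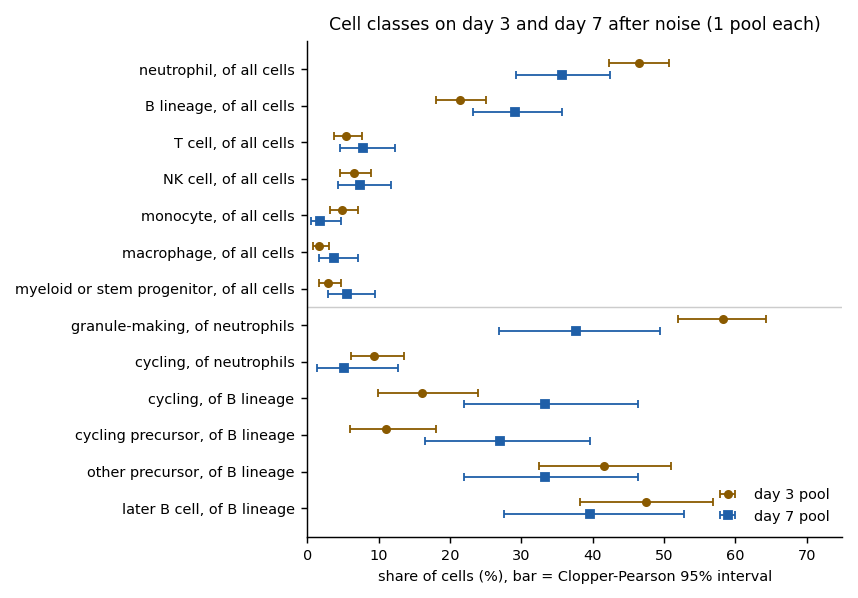
Share of cells in percent (horizontal axis) for lineages, as a share of all cells, and for states, as a share of their lineage; circles are the day 3 pool, squares the day 7 pool, bars the Clopper-Pearson 95% intervals. Granule-making cells were 58.2% of the neutrophils on day 3 and 37.7% on day 7, and cycling cells 16.1% and 33.3% of the B lineage.

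Granule-making neutrophils took a smaller share of the cells on day 7, and granule-low ones a similar share. Granule-making neutrophils, with at least 50 UMIs of Camp and Ngp per 10000, were 149 of 256 neutrophils on day 3 (58.2%, 51.9 to 64.3%) and 29 of 77 on day 7 (37.7%, 26.9 to 49.4%), a ratio of 0.647 (0.419 to 0.968). Without cells bearing markers of another lineage or of progenitors (described with the genes), the ratio was 0.665, with an interval of 0.422 to 1.01 that held 1. Of all cells, granule-making neutrophils were 27.0% on day 3 and 13.4% on day 7, a ratio of 0.496 (0.321 to 0.743). The remaining, granule-low neutrophils were 19.4% of all cells on day 3 and 22.2% on day 7, a ratio of 1.14 (0.797 to 1.62). Few cells lay near the threshold: 1 granule-making cell on each day lay within 1.5-fold above the threshold and 3 cells on each day within 1.5-fold below it. Camp and Ngp chose the states and are no finding between them.

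Cycling cells were a larger share of the B lineage on day 7, and no difference was detectable among neutrophils. Cells with at least 5 UMIs of 8 mitosis genes, Mki67 and Top2a among them, were 24 of 256 neutrophils on day 3 (9.38%, 6.10 to 13.6%) and 4 of 77 on day 7 (5.19%, 1.43 to 12.8%), a ratio of 0.554 whose interval, 0.140 to 1.61, held 1. In the B lineage they were 19 of 118 cells on day 3 (16.1%, 9.98 to 24.0%) and 21 of 63 on day 7 (33.3%, 22 to 46.3%), a ratio of 2.07 (1.06 to 4.07). Cycling precursors, with at least 2 UMIs of Vpreb1, Igll1, Rag1 or Dntt in addition, were 11% of the B lineage on day 3 (13 cells) and 27.0% on day 7 (17 cells), a ratio of 2.45 (1.12 to 5.48). Other precursors were 41.5% and 33.3%, and later B cells, with fewer UMIs of those genes, 47.5% and 39.7%, both with intervals of the ratio that held 1. Among myeloid or stem progenitors, 7 of 16 cells were cycling on day 3 and 9 of 12 on day 7.

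For expression, the UMIs of all cells of a class were summed per pool and divided by the class total (CPM, counts per 1000000 gene UMIs). A gene counted as measured when its UMIs over the pair of pools came to 20 or more, and as higher or lower past a ratio of day 7 to day 3 of 1.5 either way, which is a size and no test. Over all neutrophils, whose medians were 10690 UMIs per cell on day 3 and 6961 on day 7, 7085 genes were measured, of which 1092 were higher on day 7 (15.4%) and 906 lower (12.8%). With a total that left out the 50 most abundant, the mitochondrial and the ribosomal protein genes, the median log2 ratio of all genes shifted by -0.13 and the counts became 710 higher and 1215 lower, so that 36.9% of the genes past 1.5-fold were higher in place of 54.7%. In the other classes below, that total shifted the median by at most 0.01.

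A few cells with transcripts of other lineages or of early myeloid cells led this pooled comparison. The genes that differed most downward were those of macrophages and antigen presentation. C1qa, a complement subunit that macrophages make, was at 66.9 CPM on day 3 and 2.69 CPM on day 7, with 4 and 2 cells holding a UMI and 73.3% and 50% of the UMIs in 1 cell. Cd74, the invariant chain of MHC class II, was at 267 CPM on day 3 and 12.1 CPM on day 7. Apoe, a lipid carrier of macrophages, was at 380.0 CPM on day 3 and 24.2 CPM on day 7. C1qc had 116 and 0 UMIs, at least 8.85-fold lower when day 7 is set to a floor of 3 UMIs. Upward stood genes of early myeloid cells and monocytes. Mpo, the primary granule enzyme myeloperoxidase, was at 282 CPM on day 3 and 855 CPM on day 7 from 16 and 4 cells. Ctsg (cathepsin G) was at 48.4 CPM on day 3 and 269 CPM on day 7. F13a1, a coagulation factor subunit of monocytes, was at 1.54 CPM on day 3 and 101 CPM on day 7 from 5 and 2 cells. The summed level of the 11 macrophage markers was 612 CPM on day 3 and 72.7 CPM on day 7, with 0 and 4 of them at 0. That of the 9 progenitor markers was 2333 and 4520 CPM, with none at 0. After cells with at least 2 markers of another lineage or of progenitors were left out (24 on day 3 and 4 on day 7, a filter chosen after these genes had been seen), Cd74 had a log2 ratio of 0.35 and Apoe of 0.79, and 718 genes were higher. The progenitor markers of this filter, Elane, Mpo, Prtn3 and Ctsg among them, marked 12 cells on day 3 and 4 on day 7. Early neutrophils that make primary granules could thus be left out too. The 2 neutrophil states are described below without these cells.

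Granule-low neutrophils of day 7 carried less RNA of signal-induced genes than those of day 3. Their 103 cells on day 3 and 46 on day 7 had medians of 5501 and 5372.5 UMIs and held no UMI of Ms4a1, Mrc1 or Cd163. The 11 macrophage markers summed to 151 CPM on day 3 and 105 CPM on day 7 (4 and 6 at 0) and the 11 B lineage markers to 55.4 and 11.6 CPM (3 and 9 at 0), and their part in the results was not tested. Of 3182 measured genes 377 were higher on day 7 (11.8%) and 419 lower (13.2%). The chemokine gene Cxcl2, which draws neutrophils through Cxcr2, was at 2191 CPM on day 3 and 441 CPM on day 7, a ratio of 0.201 (95% interval 0.165 to 0.244). Per cell, Cxcl2 had a median of 4.87 per 10000 UMIs and an upper quartile of 42.3 on day 3, against a median of 0 and an upper quartile of 3.04 on day 7. After thinning each cell to 2000 UMIs (4 shallower cells of day 3 left out), 61.6% of the cells held a Cxcl2 UMI on day 3 (51.3 to 71.2%) and 23.9% on day 7 (12.6 to 38.8%), where the unthinned shares were 73.8% and 45.7%. In B lineage cells, which should lack it, 0 of 117 and 0 of 62 thinned cells held one (0.847% and 3.17% unthinned, at medians of 6069 and 5798 UMIs). The receptor gene Cxcr2 was at 1111 CPM on day 3 and 1247 CPM on day 7, a ratio of 1.12 (95% interval 0.979 to 1.28).

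Of 26 immediate early genes 19 were measured in granule-low neutrophils, of which 11 were lower on day 7 and 1, Dusp2, higher, with a median log2 ratio of -0.78 beside 0.02 over all genes. Their summed level was 17098 CPM on day 3 and 8389 CPM on day 7, a ratio of 0.491 (0.468 to 0.514). Per cell the list ran from 31.7 through a median of 168 to 785 per 10000 on day 3 and from 22.8 through 71.4 to 490 on day 7, so the ranges overlapped widely, and 6 of 46 cells of day 7 reached the day 3 median. Fos, a subunit of the AP-1 transcription factor, was at 2946 CPM on day 3 and 1347 CPM on day 7, a ratio of 0.457. Its partner Junb was at 3882 CPM on day 3 and 1591 CPM on day 7, a ratio of 0.41. Dusp1, a phosphatase that turns MAP kinases off, was at 2216 CPM on day 3 and 728 CPM on day 7 (ratio 0.328, 0.28 to 0.383). Egr1 was at 502 and 163 CPM, Nr4a1, a nuclear receptor, at 292 and 92.9 CPM, and Zfp36, which marks cytokine mRNAs for decay, at 648 and 244 CPM on days 3 and 7. Dusp2 was the 1 gene with a ratio above 1, and Ier5 and Klf2 lay closer to 1, at 0.85 and 0.792.

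**Figure D2:**
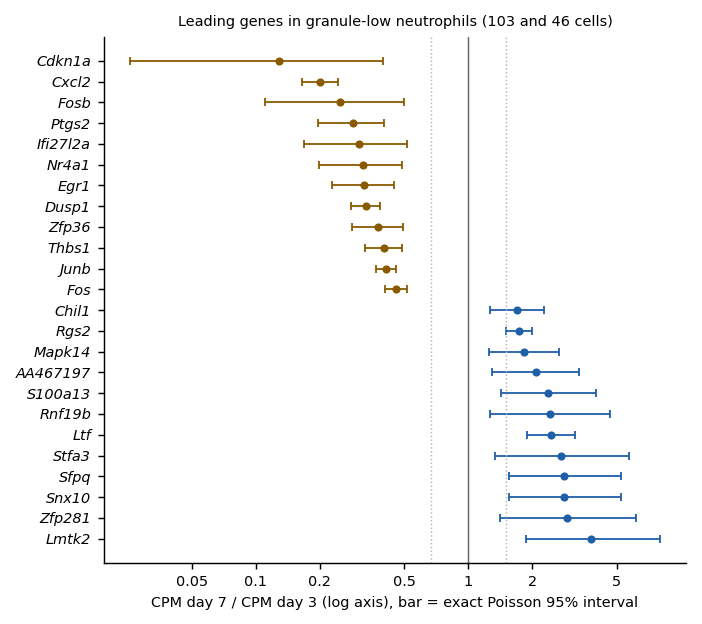
Ratio of CPM on day 7 to CPM on day 3 (log axis) in granule-low neutrophils for the 12 lower and 12 higher leading genes, with exact Poisson 95% intervals; dotted lines mark 1.5-fold either way. Cxcl2 lay at 0.201 and Junb at 0.41, and Ltf was the highest of the secondary granule genes at 2.44.

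Genes of inflammatory signalling were lower as well, though not the cytokine gene Il1b. Of 25 NF-kB feedback and cytokine genes 15 were measured, 6 of them lower and 2 higher, with a median log2 ratio of -0.42. Ptgs2, the inducible cyclooxygenase that starts prostaglandin synthesis, was at 502 CPM on day 3 and 143 CPM on day 7, a ratio of 0.286 (95% interval 0.197 to 0.403). The cytokine gene Osm was at 492 CPM on day 3 and 194 CPM on day 7. Nfkbia, an inhibitor of NF-kB and itself a target of it, was at 433 CPM on day 3 and 232 CPM on day 7, a ratio of 0.537. Il1b, the gene of interleukin 1 beta, was at 3437 CPM on day 3 and 3171 CPM on day 7, a ratio of 0.922 (95% interval 0.85 to 1.0), and the per-cell medians were 31.6 and 27.2 per 10000. Among 8 measured genes of pattern recognition 5 were lower, the lipoprotein receptor Tlr2 (275 and 155 CPM), the inflammasome sensor Nlrp3 (280.2 and 174 CPM) and the lipopolysaccharide co-receptor Cd14 (379 and 248 CPM) among them, and their median log2 ratio was -0.62. The transcription factor gene Cebpb was at 4179 CPM on day 3 and 2079 CPM on day 7, a ratio of 0.497 (95% interval 0.452 to 0.546), whereas its relative Cebpd was at 693 and 654 CPM.

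Of 50 type I interferon response genes 17 were measured in granule-low neutrophils, 7 lower and none higher, with a median log2 ratio of -0.48. Ifi27l2a was at 203 CPM on day 3 and 61.9 CPM on day 7, a ratio of 0.305 (95% interval 0.169 to 0.516) from 28 and 8 cells. Irf7, a transcription factor of this response, was at 62.1 and 19.4 CPM, and Isg15, a ubiquitin-like protein, at 129 and 73.6 CPM, a ratio of 0.569 (95% interval 0.325 to 0.95). The share of cells with Isg15 lay the other way, with overlapping intervals. After thinning to 2000 UMIs, 12.1% of the cells held an Isg15 UMI on day 3 (6.42 to 20.2%) and 17.4% on day 7 (7.82 to 31.4%). Ifitm3 (489.9 and 492 CPM) and Samhd1 (696 and 689 CPM) had ratios of 1.0 and 0.99. The summed level of the list was 2979 CPM on day 3 and 2571 CPM on day 7, a ratio of 0.863 (0.788 to 0.944).

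Promoter sequences are shown for genes of these lists, which lay lower in CPM on day 7 and are known to answer to different signals. Each run is the 250 bases before the gene's start in RefSeq on GRCm38.p6, 5′ to 3′ on the gene's strand, with motif matches in capitals. The motifs searched on both strands were NF-kB (GGG and TTTCC with 2 bases of any kind between), the cyclic AMP response element or CRE (TGACGTCA), AP-1 (TGANTCA), the interferon response element (TTTC and TTTC with 2 bases of any kind between), the TATA box (TATAAA) and the CArG box, by which serum response factor acts. Of 9 leading lower genes with a promoter in the table, 1 held each of the NF-kB, CRE, TATA and CArG motifs, and 0 held AP-1. Among 27025 promoters of this length, 1 per gene symbol, these were found in 1.40% (NF-kB), 1.62% (CRE), 6.87% (AP-1), 13% (TATA) and 1.40% (CArG), and the interferon element in 3.04%. A match describes letters and shows no binding. The chemokine gene Cxcl2 (chr5:90903649-90903898, plus strand) held 2 NF-kB matches.
Cxcl2: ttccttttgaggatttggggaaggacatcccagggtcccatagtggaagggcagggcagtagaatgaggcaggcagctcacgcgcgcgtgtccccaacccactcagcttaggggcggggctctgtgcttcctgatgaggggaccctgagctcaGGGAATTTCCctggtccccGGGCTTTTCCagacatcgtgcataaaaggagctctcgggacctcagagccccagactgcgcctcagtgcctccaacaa
Dusp1 (chr17:26508473-26508722, minus strand) held 1 CRE.
Dusp1: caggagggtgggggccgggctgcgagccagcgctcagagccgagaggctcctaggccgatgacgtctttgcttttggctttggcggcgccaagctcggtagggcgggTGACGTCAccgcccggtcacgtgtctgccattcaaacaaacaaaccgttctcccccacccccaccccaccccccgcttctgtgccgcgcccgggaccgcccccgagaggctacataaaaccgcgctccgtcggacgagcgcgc
Zfp36 (chr7:28379229-28379478, minus strand) held 1 CArG box.
Zfp36: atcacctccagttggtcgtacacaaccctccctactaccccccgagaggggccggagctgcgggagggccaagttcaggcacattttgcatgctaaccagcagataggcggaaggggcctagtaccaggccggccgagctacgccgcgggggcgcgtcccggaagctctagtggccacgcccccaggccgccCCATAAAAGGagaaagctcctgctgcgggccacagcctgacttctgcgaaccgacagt
Isg15 (chr4:156200819-156201068, minus strand), of the interferon list, held 3 interferon elements that overlap one another, read on the opposite strand.
Isg15: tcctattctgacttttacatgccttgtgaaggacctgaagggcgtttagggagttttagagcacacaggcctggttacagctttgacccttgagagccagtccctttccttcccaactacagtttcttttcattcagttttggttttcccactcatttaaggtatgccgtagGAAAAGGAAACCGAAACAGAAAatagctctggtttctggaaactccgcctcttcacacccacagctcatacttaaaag

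Among secondary granule genes in granule-low neutrophils, Ltf and Lcn2 were higher on day 7 and the list as a whole was near level. Ltf, the iron-binding granule protein lactoferrin, was at 199.6 CPM on day 3 and 488 CPM on day 7, a ratio of 2.44 (95% interval 1.89 to 3.17). Lcn2, the siderophore-binding protein lipocalin 2, was at 1874 CPM on day 3 and 3136 CPM on day 7, a ratio of 1.67 (95% interval 1.53 to 1.83). Ltf came from 22 and 12 cells, with 26.1% and 27.8% of the UMIs in 1 cell. Of 12 secondary granule genes 11 were measured, 4 of them higher, Ltf, Lcn2 and the state-choosing Camp and Ngp, and none lower, beside 11.8% higher over all genes. The median log2 ratio of the list was 0.089 and its summed ratio 1.04 (1.01 to 1.07), and primary granule genes, of which 3 were measured and none was past 1.5-fold, had a summed ratio of 0.739 (0.684 to 0.798). The filter had left out cells by Mpo, Elane, Prtn3 and Ctsg of the primary granule list, so the level of that list here is a description. The gelatinase Mmp9, a later granule gene, was at 1483 and 2118 CPM, a ratio of 1.43 (95% interval 1.28 to 1.59). Retnlg, a resistin-like secreted protein of mature neutrophils, was at 38760.2 and 35342 CPM. Of 23 measured late maturation genes 3 were lower, a share near the 13.2% lower over all genes, and none higher. Among the other higher leading genes, Rgs2, which dampens G protein signals, was at 772 CPM on day 3 and 1339 CPM on day 7, a ratio of 1.74 (95% interval 1.51 to 2.0). Chil1, a chitinase-like protein, was at 196 and 333 CPM, and the splicing factor Sfpq at 36.9 and 105 CPM. Stfa2, a stefin protease inhibitor with near-identical copies whose reads may be split, was at 109 and 7.74 CPM from 2 and 1 cells, whereas Stfa3 was at 26.8 and 73.6 CPM with 56.2% and 68.4% in 1 cell.

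Granule-making neutrophils of day 7 held fewer S phase and mitosis transcripts than those of day 3 after a filter that removed all 4 cycling neutrophils of day 7. On day 3, 11 cycling granule-making cells stayed in, so the levels of these genes are a description. Without cells bearing other markers there were 129 granule-making cells on day 3 and 27 on day 7, with medians of 14685 and 12263 UMIs. Of 5307 measured genes 622 were higher on day 7 (11.7%) and 1177 lower (22.2%). All 18 measured S phase genes had a ratio under 1 and 15 were past 1.5-fold, with a median log2 ratio of -1.45 in which genes without a UMI on day 7 stand at their bound. Their summed level was 572 CPM on day 3 and 89.9 CPM on day 7, a ratio of 0.157 (0.108 to 0.222). Of 29 measured G2 and mitosis genes 26 were lower, with a summed level of 3619 CPM on day 3 and 1881 CPM on day 7. Pclaf, which rides on the replication clamp PCNA, had 201 and 0 UMIs from 15 and 0 cells, at least 12.4-fold lower. Rrm2, a subunit of ribonucleotide reductase, had 112 and 0 UMIs from 11 and 0 cells, at least 6.92-fold lower. Pcna itself was at 29.8 CPM on day 3 and 8.18 CPM on day 7. By the mitosis count, 11 of the 129 cells were cycling on day 3 (8.53%) and 0 of 27 on day 7, so the cells behind this difference were few. The Clopper-Pearson limit on day 7 was 12.8%, and a floor of 3 cells gives 11.1%. The filter set this 0, as it left out every cycling neutrophil of day 7. Before it, 24 of 256 neutrophils were cycling on day 3 and 4 of 77 on day 7. Over all neutrophils before the filter, the median log2 ratio was -0.99 for S phase genes and -0.14 for G2 and mitosis genes. After it, the latter was -1.80. The 0 UMIs of Pclaf and Rrm2 and the summed levels of both lists were counted after the filter. Ribosomal protein genes, parts of the translation machinery, were lower in 24 of 85 and higher in 1, with a summed level of 27139 CPM on day 3 and 21464 CPM on day 7.

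Of 23 measured late maturation genes 4 were higher in the same granule-making cells and 2 lower, beside 11.7% higher and 22.2% lower over all genes. Retnlg was at 12797 CPM on day 3 and 21794 CPM on day 7, a ratio of 1.7 (95% interval 1.66 to 1.75). Mmp9 was at 1113 CPM on day 3 and 1785 CPM on day 7, a ratio of 1.6 (95% interval 1.47 to 1.75). Csf3r, the receptor for the growth factor G-CSF, was at 123 and 196 CPM, and Cxcr2 at 219 and 313 CPM. The chemokine gene Ccl6 was at 76.3 CPM on day 3 and 248 CPM on day 7, a ratio of 3.25 (95% interval 2.48 to 4.24). Olfm4, a granule protein carried by part of the neutrophils, was at 712 CPM on day 3 and 1668 CPM on day 7 from 22 and 9 cells. Of 12 secondary granule genes this was the 1 that was past 1.5-fold, and Ltf and Lcn2 had ratios of 0.979 and 0.987. Cxcl2 was lower here too, at 194 CPM on day 3 and 13.6 CPM on day 7, a ratio of 0.0702 (95% interval 0.0227 to 0.165). Of 17 measured immediate early genes 5 were lower and none higher, a share near the 22.2% lower over all genes, with Egr1 at 105 and 13.6 CPM and Junb at 445 and 359.8 CPM. Of 17 measured NF-kB feedback genes 6 were higher and 4 lower, beside 11.7% higher and 22.2% lower over all genes. Ifi27l2a was at 50.6 CPM on day 3 and 79 CPM on day 7, a ratio of 1.56 (95% interval 0.997 to 2.38) with 27% and 65.5% of the UMIs in 1 cell. The difference between the 2 states in these ratios was not tested.

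**Figure D3:**
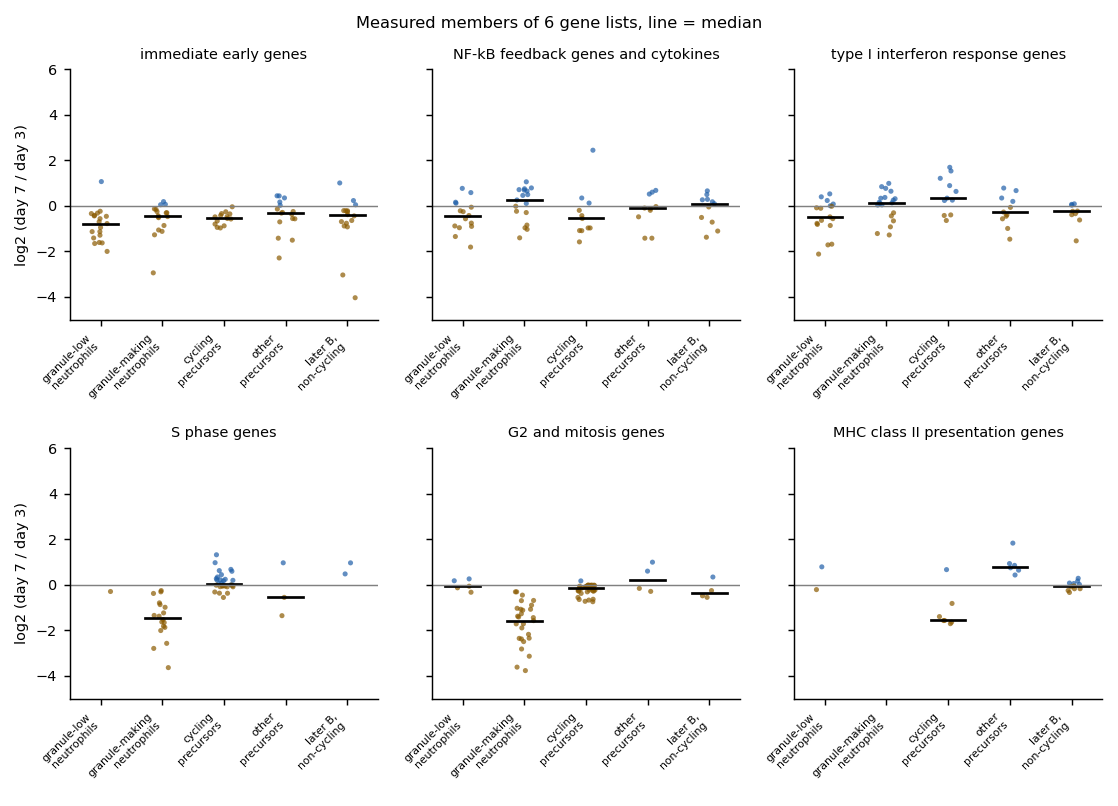
Log2 ratio of day 7 to day 3 for each measured member of 6 gene lists (1 point per gene) in 2 neutrophil and 3 B lineage states; the black line is the median where at least 3 members were measured. Immediate early genes had a negative median in all 5 states, S phase genes at -1.45 in granule-making neutrophils and 0.03 in cycling precursors, and MHC class II genes at -1.57 in cycling and 0.80 in other precursors. The filter on neutrophils had left out every cycling neutrophil of day 7.

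B lineage cells of day 7 carried more RNA of DNA replication and less RNA of mature B cells and of immediate early genes. Of 7302 measured genes 703 were higher on day 7 (9.63%) and 932 lower (12.8%). All 30 S phase genes had a ratio above 1 and 26 were past 1.5-fold, with a summed level of 3204 CPM on day 3 and 5705 CPM on day 7, a ratio of 1.78 (1.7 to 1.87). Tyms, thymidylate synthase, was at 52.9 CPM on day 3 and 172 CPM on day 7, a ratio of 3.26 (95% interval 2.33 to 4.61). Rrm2 was at 193 CPM on day 3 and 437 CPM on day 7. Dtl, which directs the destruction of replication licensing factors, was at 46.7 CPM on day 3 and 122 CPM on day 7. They came from few cells, 15 and 19 for Tyms and 13 and 17 for Dtl. Of 35 G2 and mitosis genes 16 were higher and none lower. Within the cycling precursors alone the S phase list had a median log2 ratio of 0.03 and a summed ratio of 1.03 (0.971 to 1.08), and within non-cycling B lineage cells a median of -0.32.

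Lower over the B lineage as a whole were genes of its later stages, but not over its non-cycling cells alone. There the median log2 ratios were 0.087 for mature B cell genes, 0.19 for immunoglobulin constant genes and 0.22 for MHC class II genes. Over all B lineage cells, of 21 measured mature B cell genes 11 were lower and 1 higher, and the summed level was 3820.2 CPM on day 3 and 2556 CPM on day 7, a ratio of 0.669 (0.632 to 0.708). Ms4a1 was at 461 CPM on day 3 and 163 CPM on day 7, a ratio of 0.353 (95% interval 0.285 to 0.434). Ccr7, a receptor for lymph node chemokines, was at 128 CPM on day 3 and 47.7 CPM on day 7, and the cytokine gene Ltb at 348 CPM on day 3 and 149 CPM on day 7. All 11 MHC class II genes had a ratio under 1 and 7 were lower. Cd74 was at 3088 CPM on day 3 and 1692 CPM on day 7 and H2-Aa at 724 CPM on day 3 and 465 CPM on day 7. Of 8 measured immunoglobulin constant genes 5 were lower. Igkc was at 4408 CPM on day 3 and 2933 CPM on day 7 and the lambda gene Iglc1 at 484 CPM on day 3 and 75.7 CPM on day 7. The lambda genes are near-identical copies whose reads may be split among them, and Iglc1 came from 32 and 9 cells. Ighg2b, of switched antibody, was the 1 higher gene of the list, at 19 and 51 UMIs from 4 and 5 cells, with 52.6% and 43.1% of them in 1 cell.

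Signal-induced genes were lower in the B lineage as in granule-low neutrophils. Of 19 measured immediate early genes 14 were lower on day 7 and none higher, with a summed level of 8715 CPM on day 3 and 5249 CPM on day 7, a ratio of 0.602 (0.579 to 0.626). Fos was at 129.8 CPM on day 3 and 30.8 CPM on day 7, a ratio of 0.238 (95% interval 0.144 to 0.376). Junb was at 1129 CPM on day 3 and 549.6 CPM on day 7 and Egr1 at 137 CPM on day 3 and 51.9 CPM on day 7. Tsc22d3, a target of the glucocorticoid receptor, was at 329 CPM on day 3 and 149 CPM on day 7. Nr3c1, the receptor itself, was at 101 CPM on day 3 and 44.9 CPM on day 7. In all, 6 of 8 measured glucocorticoid response genes were lower and none higher, beside 12.8% lower and 9.63% higher over all genes. The median log2 ratio of this list was -0.92, and -0.29 within the other precursors alone. Of 16 NF-kB feedback genes 5 were lower and 1, the adhesion molecule gene Icam1, higher, with a median log2 ratio of -0.48. Within non-cycling later B cells alone that median was 0.10. Cycling precursors held less of the immediate early list than the other B lineage states on both days (44.4 and 28.5 per 10000 UMIs on days 3 and 7, against 117 and 112 in other precursors and 103 and 87.2 in non-cycling later B cells), and their share differed between the days. Within the states the summed ratios were 0.643 (0.595 to 0.696) in cycling precursors, 0.958 (0.897 to 1.02) in other precursors and 0.848 (0.787 to 0.913) in non-cycling later B cells.

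**Figure D4:**
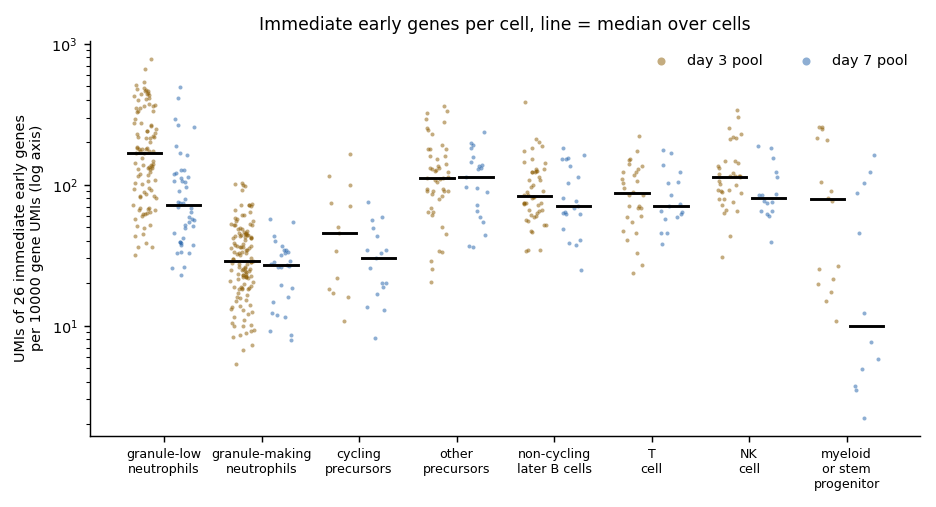
Summed UMIs of 26 immediate early genes per 10000 gene UMIs (log axis), 1 point per cell, day 3 beside day 7, with the median over cells as a line. The medians were 168 and 71.4 in granule-low neutrophils, 112 and 113 in other B cell precursors, and 79.0 and 9.99 in myeloid or stem progenitors.

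Across the remaining lineages the list was lower on day 7 in some and level in others. The summed level per 10000 UMIs was 119 and 92.5 on days 3 and 7 in NK cells (36 and 16 cells), a ratio of 0.779 (0.731 to 0.829). In T cells (30 and 17 cells) it was 82.3 and 82.4, a ratio of 1.0 (0.932 to 1.07). In myeloid or stem progenitors (16 and 12 cells) it was 83 and 38.1, a ratio of 0.459 (0.432 to 0.487), with 4 of the 12 cells of day 7 at or above the day 3 median. Of these progenitors 7 of 16 were cycling on day 3 and 9 of 12 on day 7, and the part of this in the ratio was not tested. Heat shock genes, a second set that handling can induce, had summed ratios of 1.01 (0.968 to 1.05) in the B lineage, 0.713 (0.639 to 0.795) in its other precursors, 0.86 (0.783 to 0.945) in T cells, 0.852 (0.727 to 0.994) in granule-low neutrophils and 0.765 (0.70 to 0.836) in NK cells. Each pool was digested separately, and the part of digestion in these ratios was not tested.

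MHC class II genes had ratios on opposite sides of 1 in the 2 kinds of B cell precursor, a difference between states that was not tested. Among cycling precursors (13 cells on day 3 and 17 on day 7, medians of 17776 and 26671 UMIs) 4585 genes were measured, 614 higher (13.4%) and 484 lower (10.6%). Dntt, which adds untemplated bases at gene segment joints, had 0 and 214 UMIs from 0 and 10 cells, at least 48.6-fold higher. Vpreb1 was at 383 CPM on day 3 and 1211 CPM on day 7 and Igll1 at 326 CPM on day 3 and 693 CPM on day 7. These 3 genes took part in choosing precursors, so their levels are a description. Vpreb2, a near-identical copy of Vpreb1 whose reads may be split, was at 13.6 and 118 CPM and is a description as well. It had 4 and 51 UMIs from 2 and 11 cells on days 3 and 7, with 75% and 31.4% in 1 cell. Outside these genes, the transcription factor Lef1 was at 84.8 CPM on day 3 and 231 CPM on day 7, a ratio of 2.73 (95% interval 1.74 to 4.41). Blnk, an adaptor of the B cell receptor, was at 271 CPM on day 3 and 573 CPM on day 7. Lower were MHC class II genes, 6 of 7 measured: H2-Aa was at 397 CPM on day 3 and 134 CPM on day 7, a ratio of 0.338 (95% interval 0.242 to 0.467), and Cd74 at 292 and 111 CPM. Ighm, the mu heavy chain, was at 3286 CPM on day 3 and 2099 CPM on day 7, and Ccr7 at 61 and 11.6 CPM. With 13 and 17 cells, 1 cell could hold much of a gene: 26.5% and 60.3% of the H2-Aa UMIs of days 3 and 7 lay in 1 cell.

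In the other precursors (49 and 21 cells, medians of 6107 and 5168 UMIs) 3417 genes were measured, 477 higher (14%) and 651 lower (19.1%). Vpreb1 was at 2315 CPM on day 3 and 1159 CPM on day 7, a ratio of 0.501 (95% interval 0.411 to 0.605), with 8.65% and 40.2% of the UMIs in 1 cell. Dntt was at 754 CPM on day 3 and 392 CPM on day 7. Both genes took part in choosing precursors, so these levels are a description. H2-Aa was at 105 CPM on day 3 and 374 CPM on day 7, a ratio of 3.57 (95% interval 2.2 to 5.82). Cd74 was at 792 CPM on day 3 and 1433 CPM on day 7, a ratio of 1.81 (95% interval 1.47 to 2.22). Of 6 measured MHC class II genes 5 were higher and none lower. Of 14 measured mature B cell genes 9 were higher and 2 lower, Cd38 (111 and 256 CPM) and the IgM receptor gene Fcmr (31.8 and 155 CPM) among the higher. Igkc was at 2451 CPM on day 3 and 3723 CPM on day 7 and Ighm at 4401 CPM on day 3 and 5949.6 CPM on day 7. Lower were genes of glucose use. Ldha, lactate dehydrogenase, was at 200.3 CPM on day 3 and 18.3 CPM on day 7, a ratio of 0.0911 (95% interval 0.0108 to 0.343) from 18 and 2 cells. Eno1, enolase, was at 92.2 and 18.3 CPM. Impdh2, the limiting enzyme of guanine nucleotide synthesis, had 32 and 0 UMIs from 15 and 0 cells, at least 3.72-fold lower. All 12 measured genes of glycolysis and hypoxia had a ratio under 1, and 6 were lower. The threshold for precursors lay amid the cells, with 13 and 9 cells within 1.5-fold above it, so few UMIs separate part of these cells from the later B cells.

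**Figure D5:**
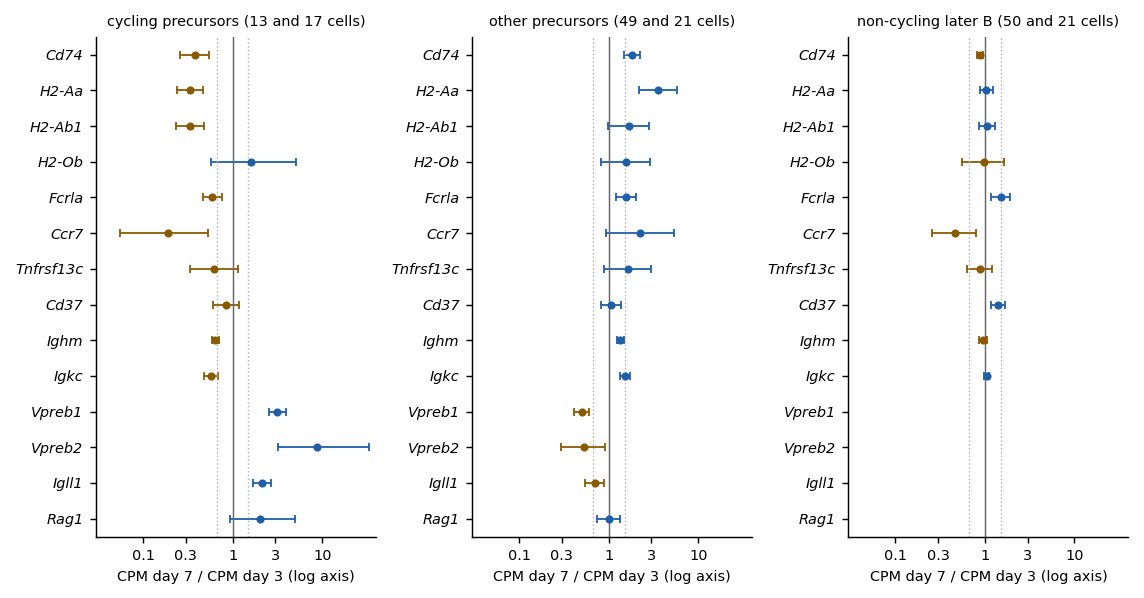
Ratio of CPM on day 7 to CPM on day 3 (log axis) with exact Poisson 95% intervals for genes of MHC class II, mature B cells, immunoglobulin and the surrogate light chain in 3 B lineage states; no point is drawn where a gene was under 20 UMIs. H2-Aa lay at 0.338 in cycling and 3.57 in other precursors, and at 1.04 in later B cells; Vpreb1, Igll1 and Rag1 took part in choosing the precursors.

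Non-cycling later B cells (50 and 21 cells, medians of 5177 and 5183 UMIs) had MHC class II genes at a similar level on both days and lower lambda chain genes on day 7. Of 2898 measured genes 347 were higher on day 7 (12%) and 463 lower (16%). All 11 MHC class II genes stayed within 1.5-fold, with a summed level of 15493 CPM on day 3 and 14466 CPM on day 7, a ratio of 0.934 (0.881 to 0.99), and Igkc was at 11386 CPM on day 3 and 11917 CPM on day 7. Ms4a1 was at 1636 CPM on day 3 and 1011 CPM on day 7, a ratio of 0.618 (95% interval 0.497 to 0.762), but per cell its medians were 7.33 and 7.37 per 10000 and its upper quartiles 24.5 and 15.1. Of 21 mature B cell genes 4 were lower, Ccr7 (332 and 155 CPM) among them, and 2 higher, Cr2 and Fcrla (663 and 1001 CPM). These shares were near the 16% lower and 12% higher over all genes. Iglc1 was at 1692 CPM on day 3 and 446 CPM on day 7, a ratio of 0.264 (95% interval 0.192 to 0.355), from 28 and 6 cells, and Iglc2 at 1729 and 1011 CPM. Of 7 measured immunoglobulin constant genes 4 were lower and none higher, with a median log2 ratio of -0.64. Fos had 80 and 2 UMIs, a ratio of 0.0611 (95% interval 0.00727 to 0.228), with 27.5% and 50% of them in 1 cell. Junb was at 2277 and 1748 CPM and Jund, another AP-1 subunit, at 2795 and 2895 CPM. Zfp36l2, which destabilises mRNAs, was at 488 CPM on day 3 and 109 CPM on day 7, a ratio of 0.224 (95% interval 0.113 to 0.404). Ifi27l2a was at 343 CPM on day 3 and 118 CPM on day 7.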

How the data were processed

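Libraries of sorted cochlear CD45+ cells were sequenced on the 10x platform with hashtag antibodies. The deposited matrices hold whole-number UMI counts per gene or hashtag and barcode, made by the authors with Cell Ranger 3.1.0 per the file headers and with mm10 as the build per the submitters' processing notes; any earlier removal of doublets is not stated there. Barcodes with 2 hashtags were left out and no doublet caller was run. Of 1556 barcodes in both matrices 1377 passed the gene and mitochondrial limits, 48 had a top hashtag under 10 UMIs and 44 one under 80%. Counts were summed per class and pool, and ratios carry exact conditional Poisson 95% intervals, shares Clopper-Pearson ones. Both cover counting error only, and those of gene and list ratios leave out the spread between cells. A gene at 0 in a pool was set to 3 UMIs. No test was run, as each day is 1 pool. The gene UMIs came to 6681492 on day 3 and 2529045 on day 7. Leading genes were the 12 each way whose interval bound nearest to 1 lay farthest from it, with at least 30 UMIs and past 1.5-fold also without the top cell of each pool; from each list 2 to 4 such members were named, and further members were chosen after their values were seen. Members and lists were chosen with earlier results of these data known. The calculation was checked on simulated data. Python 3.11.15, numpy 2.4.6, scipy 1.17.1 and pandas 2.3.3 were used. Promoters were read from RefSeq on GRCm38.p6.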

Additional observations from a re-analysis of the deposited data

Results flagged for a closer look

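Lists were taken up here from chosen pairs of classes. In each pair 1 median lay past the fold that calls a gene higher and the other past that for lower. Other lists also had medians of opposite sign and are not given. G2 and mitosis genes, for example, had a median of -0.14 in all neutrophils and 0.56 in the B lineage. The differences between the classes were not tested. S phase genes had a median of -0.99 in all neutrophils and 0.82 in the B lineage. MHC class II genes had a median of -1.57 in cycling precursors and 0.80 in other precursors. Immunoglobulin constant genes had a median of -0.65 in cycling precursors (3 measured), 0.60 in other precursors (5 measured) and -0.64 in non-cycling later B cells (7 measured).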

How the results depend on the processing

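Each day was 1 pool, so no replicate could be left out. No paired analysis was possible because the labels give no replicate numbers. Of 141 values of shares under other settings 140 moved by less than their interval, and of 104 counts of genes 76 stayed within 1.5 times; of 1167 values of named genes 20 reversed and of 455 list medians 16. Thinning to 2000 UMIs gave 449 higher and 413 lower genes in neutrophils and 265 and 349 in the B lineage, and Lgmn a log2 ratio of 0.091. A minimum of 5 UMIs gave 2236 higher genes in neutrophils and 1419 higher and 1687 lower in the B lineage; one of 50 UMIs gave 584 and 401, and 318 and 381, with the neutrophil chemokine median at 0.23. With cells weighted alike 1365 neutrophil genes were lower, and without each gene's top cell 561 were higher and 1366 lower, with the chemokine median at 0.065; the other total gave 710 higher. In granule-low cells alone 444 were lower and primary granule genes had a median of -0.10. The filters and states that follow were chosen after seeing the data, except where cells were only non-cycling or only precursors. Without cells bearing other markers 718 genes were higher, the chemokine median was 0.063 and the primary granule median (members of that list served in the filter) -0.065, and log2 ratios were -0.63 (Tmsb10), -2.24 (Crip1), -1.35 (Ccl9), 0.35 (Cd74), 0.79 (Apoe) and 0.72 (H2-Eb1). In such granule-making cells 622 genes were higher, the interferon median was 0.13, that of primary granule genes -0.25, and log2 ratios were -0.55 (Tmsb10), -1.15 (Crip1), 0.32 (Cd74), 1.43 (Apoe), 0.21 (Bst2) and 0.64 (Ifi27l2a). In the B lineage, Ighg2b was at -0.021 with states weighted alike. Non-cycling cells alone gave medians of -0.32 (S phase), 0.087 (mature B), 0.19 (immunoglobulin constant) and 0.22 (MHC class II), and -1.18 for Ighg2b. Precursors alone gave 0.025 (immunoglobulin constant) and 0.17 (Ms4a1). Cycling precursors gave 484 lower genes and 0.93 for Ltb. Other precursors gave -0.55 (S phase), 0.74 (mature B), 0.60 (immunoglobulin constant), 0.80 (MHC class II), 1.52 (Ms4a1) and 0.26 (Iglc1). Non-cycling later B cells gave 347 higher and 463 lower genes and -1.13 for Ighg2b. The cause was not tested. Cxcl2 in granule-low neutrophils was lower in all 14 alternatives run on it (log2 ratio -2.65 to -2.26), and depth limits genes of few UMIs and classes of few cells.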
